A study of Mus musculus with 16 samples.

Results

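The comparison set tumors given 3 agents against sham-treated tumors of the same mouse model, and used 6 of the 16 libraries of the series. Members were chosen by title alone: the 3 tumors titled for IPW-5371, RT and anti-PD-L1 form the Triple group, and the 3 titled Sham form the Sham group. Every tumor was a mammary carcinoma with the genotype Trp53 null, grown from an F2 tumor-derived transplant (mTDT) of family F placed orthotopically in a BALB/cJ female of 8 to 10 weeks. Mice entered a treatment group at a tumor size of 65 to 100 mm3. The Triple group received IPW-5371, which blocks the TGF beta pathway, at a daily 20 mg/kg, an antibody to PD-L1 at 10 mg/kg weekly, and a single focal radiation dose of 10 Gy. The Sham group received a control immunoglobulin G at 25 mg/kg, given several times a week, and no radiation. The labels do not say whether the Triple mice also received the control immunoglobulin. Tumors were taken 7 days after treatment. All 6 tumors came from 1 transplant family, so they describe that family and not mammary carcinoma at large, and the 3 agents were given together, so their parts in a difference cannot be told apart here.

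TGF beta is a secreted cytokine that signals through a receptor kinase pair to SMAD transcription factors. In tumors it is known for driving matrix production by fibroblasts and for holding back T cells. PD-L1, encoded by Cd274, is a surface ligand that restrains T cells through the receptor PD-1, encoded by Pdcd1. Ionizing radiation breaks DNA and can release nucleic acid that starts a type I interferon response, while interferon gamma from lymphocytes induces antigen presentation genes and the chemokine Cxcl9.

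Total counts were 13302488 to 17184023 in the Sham tumors and 12157071 to 14424306 in the Triple tumors. Levels are given as CPM, a library's counts scaled to 1e6 with TMM factors. Of the gene targeted in the model, Trp53 transcripts were counted in every tumor. Sham tumors 1, 2 and 3 had 79.7, 85.8 and 86.0 CPM and Triple tumors 1, 2 and 3 had 75.3, 64.0 and 110 CPM of Trp53, with overlapping groups, so the counts do not mark the null allele. Epithelial markers were present in every tumor, as the label of a mammary carcinoma requires. Epcam, an epithelial adhesion molecule, was at 143 to 168 CPM in Sham and 112 to 183 CPM in Triple, and Krt5, a basal keratin, was at 603 to 721 and 351 to 438 CPM. The library names carry a code whose meaning the labels do not give. All Sham tumors and Triple 1 have A2301, and Triple 2 and 3 have A2304. Triple 2 stood apart from the other 5 tumors on the first principal component, at -113.56 against -27.18 to 88.5.

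No gene passed the adjusted threshold. Of 16017 genes tested with edgeR's quasi-likelihood test over all 15 tumors, 0 had an adjusted p under 0.05, and the smallest adjusted p was 0.194. At an unadjusted p under 0.05, 1595 genes were higher in Triple (9.96% of those tested) and 790 were lower (4.93%), against 801 of either direction if p-values were spread evenly. DESeq2 on the same genes called 517 higher (3.23%) and 102 lower (0.637%) at an adjusted p under 0.05, and limma-voom called 0 with 2076 genes at an unadjusted p under 0.05. In 1508 genes (9.41%) all 3 Triple tumors lay above all 3 Sham tumors, and in 1146 (7.15%) all 3 lay below. That split depended on scaling, since with the library total alone 1849 genes lay above and 717 below. All differences below are therefore given as measured, with none of them past the adjusted threshold of edgeR. Alternative fits cited below have their own totals. Over all genes, the number at an unadjusted p under 0.05, in either direction, was 3446 of 16414 without Sham 1. It was 1487 of 16463 without Sham 2 and 1804 of 16427 without Sham 3. It was 3336 of 16378 without Triple 1, 1135 of 16243 without Triple 2 and 2459 of 16430 without Triple 3. With the library code as a term it was 590 of 16017.

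**Figure D1:**
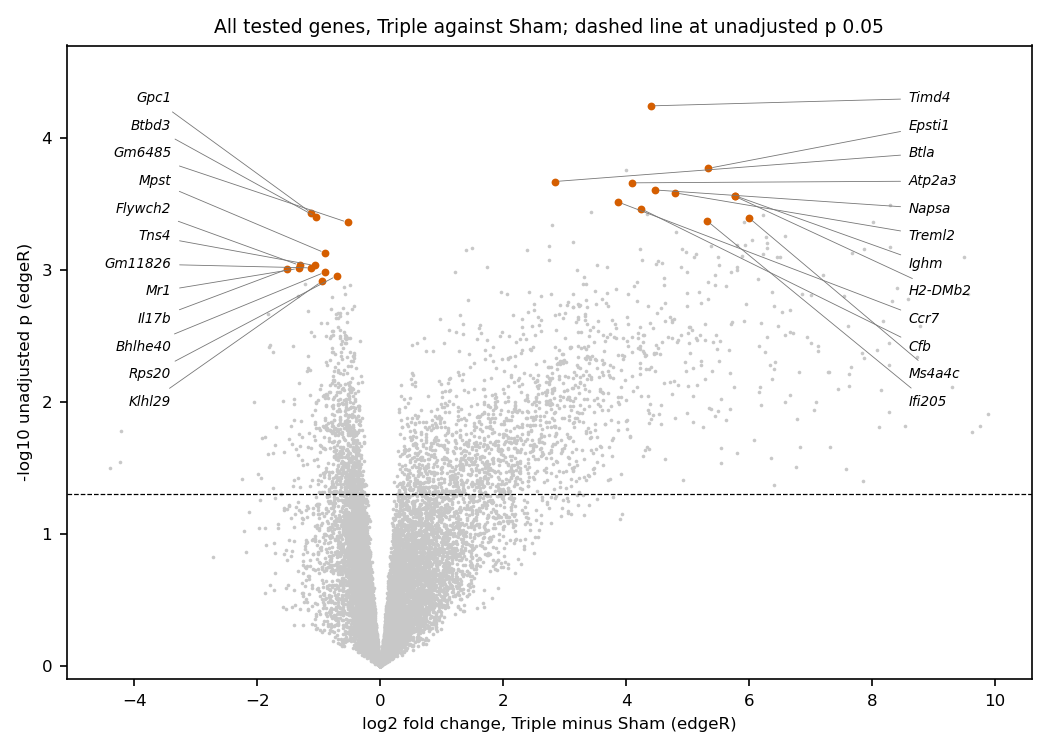
Each point is 1 of the 16017 tested genes, with the log2 fold change (Triple minus Sham) on the x axis and -log10 of the unadjusted edgeR p on the y axis. The orange points are the 12 named genes of each direction; those higher in Triple span log2 fold changes of 2.84 to 6.00 and those lower span -1.51 to -0.53.

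In each direction 12 genes are named, those with the smallest p among genes that had no overlap and a mean log2 CPM of 1 or more. Timd4, a phosphatidylserine receptor of macrophages, measured 0.477, 0.327 and 0.259 CPM in Sham 1 to 3 and 7.14, 9.87 and 6.16 CPM in Triple 1 to 3. The groups were far apart and the 3 Triple tumors close together (log2 fold change 4.40 ± 0.75 SE, edgeR adjusted p = 0.194, DESeq2 adjusted p = 2.59e-06). Btla, an inhibitory receptor of lymphocytes, measured 0.656, 0.655 and 0.778 CPM in Sham and 6.94, 5.24 and 2.96 CPM in Triple (2.84 ± 0.56). In both genes all 3 Triple tumors lay above every Sham tumor, as the choice of genes required.

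The other 10 of the 12 named genes, also chosen for having no overlap, had their highest level in Triple 2, except Ighm. Epsti1, an interferon-induced gene, measured 0.656, 0.0819 and 0.0648 CPM in Sham and 6.74, 22.6 and 5.74 CPM in Triple. Cfb, complement factor B, measured 7.46, 5.40 and 6.87 CPM in Sham and 31.7, 292 and 49.6 CPM in Triple. Ifi205, an interferon-inducible gene of the Ifi200 family, measured 0.656, 0.164 and 0.389 CPM in Sham and 5.94, 34.3 and 10.2 CPM in Triple. These genes were low but counted in Sham and several times higher in each Triple tumor. Atp2a3, a calcium pump of blood cells, Napsa, an aspartic protease, Treml2, a myeloid and lymphoid surface receptor, Ccr7, H2-DMb2 and Ms4a4c completed the group, with log2 fold changes of 3.87 to 6.00.

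The genes measured lower differed by less and were more even among the tumors. Gpc1, a cell surface heparan sulfate proteoglycan, measured 247, 265 and 251 CPM in Sham and 153, 101 and 97.5 CPM in Triple (log2 fold change -1.12 ± 0.23, edgeR adjusted p = 0.194). Mr1, which presents microbial vitamin B metabolites to T cells, measured 139, 125 and 122 CPM in Sham and 64.6, 37.5 and 51.0 CPM in Triple (-1.33 ± 0.31). Il17b, a cytokine of the interleukin 17 family, measured 47.4, 24.5 and 27.7 CPM in Sham and 8.67, 12.7 and 13.6 CPM in Triple (-1.51 ± 0.36). For these genes each Triple tumor lay below every Sham tumor, as the choice of genes required. The lowest tumor was not the same one for each gene.

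Bhlhe40, a transcriptional repressor, measured 310, 266 and 241 CPM in Sham and 137, 111 and 190 CPM in Triple. Tns4, a focal adhesion protein of epithelial cells, measured 401, 330 and 364 CPM in Sham and 212, 108 and 201 CPM in Triple. Mpst, a sulfurtransferase, measured 49.3, 71.0 and 51.4 CPM in Sham and 33.4, 26.3 and 32.3 CPM in Triple. Btbd3, Klhl29 and Flywch2 were likewise lower in all 3 Triple tumors, with log2 fold changes of -1.05, -0.95 and -1.31. Rps20, a ribosomal protein gene with copies elsewhere in the genome, and the predicted genes Gm6485 and Gm11826 completed the 12, and their values are uncertain because counting could split reads between near-identical copies. The 9 tumors of the other treatment groups, which share these Sham controls, ranged from 77.9 to 188 CPM for Gpc1 and from 32.5 to 92.8 CPM for Mr1.

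By a rule of size rather than of p, 177 genes (1.11%) were at least 2-fold above the highest Sham tumor in all 3 Triple tumors and at 1 CPM or more, while 5 genes (0.0312%) were at or under 0.5 of the lowest Sham tumor in all 3. The 5 were chosen after their values were seen. Igfbp2, which binds insulin-like growth factors, measured 239, 279 and 345 CPM in Sham and 67.7, 102 and 76.5 CPM in Triple. Pappa, a protease of such binding proteins, measured 108, 125 and 85.2 CPM in Sham and 37.2, 31.5 and 18.3 CPM in Triple. Kcnh1, a potassium channel, measured 44.4, 46.7 and 37.2 CPM in Sham and 16.9, 15.5 and 16.0 CPM in Triple. The remaining genes were Nags and Mnd1-ps, at 2.14 to 3.85 and 1.91 to 2.33 CPM in Sham and 0.507 to 1.00 and 0.613 to 0.934 CPM in Triple.

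The 3 Triple tumors did not share 1 profile. Triple 2 had 1806 genes at least 2-fold above the highest Sham tumor (11.3%), against 557 in Triple 1 (3.48%) and 685 in Triple 3 (4.28%). At or under 0.5 of the lowest Sham tumor there were 255 genes in Triple 2 (1.59%), 69 in Triple 1 (0.431%) and 140 in Triple 3 (0.874%). Among the 1508 genes with no overlap and Triple above, Triple 2 was the highest tumor in 1066, or 70.7%. The plot of list medians shows this list by list: the interferon, MHC and lymphocyte lists lay farthest from Sham in Triple 2, B cell and lymph node genes did so in Triple 1, and macrophage genes were at 3.54 in Triple 2 and 1.75 in Triple 3.

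**Figure D2:**
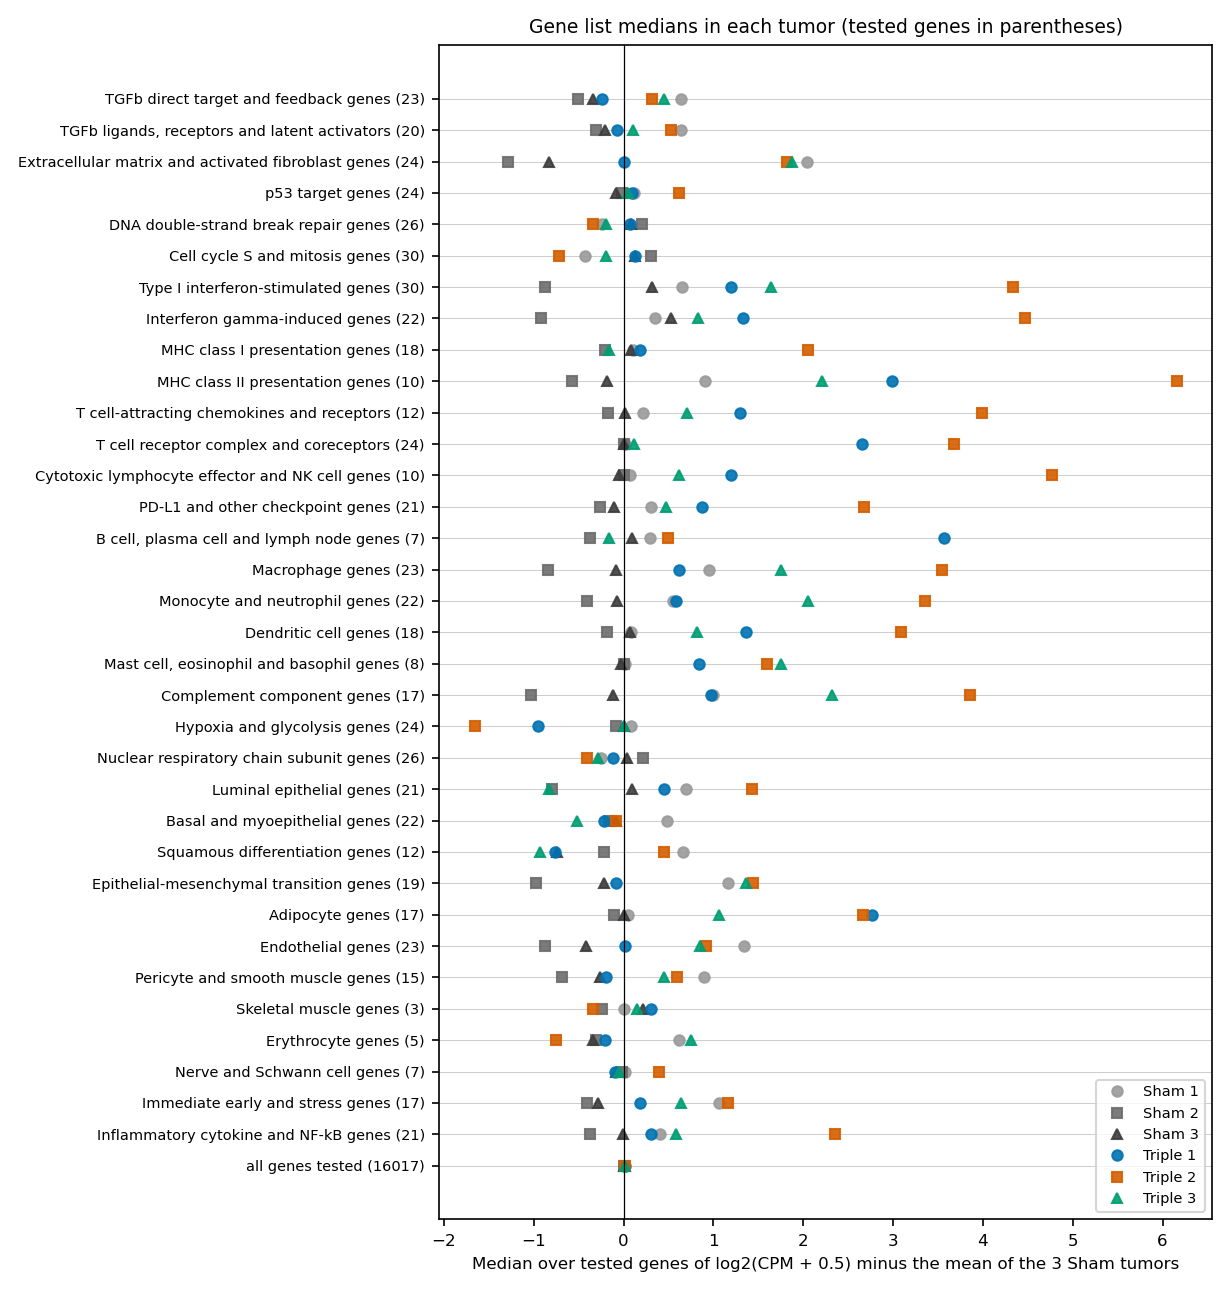
Each row is a gene list with its number of tested genes, and each symbol is 1 tumor placed at the median over those genes of log2(CPM + 0.5) minus the mean of the 3 Sham tumors. MHC class II genes reach 6.16 in Triple 2, 2.99 in Triple 1 and 2.21 in Triple 3, hypoxia genes sit at -1.66, -0.95 and 0.00 in Triple 2, 1 and 3, and the medians over all genes tested are 0.00 or 0.01 in each tumor.

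Type I interferon-stimulated genes act against viruses inside cells, and all 30 listed members were tested. All 30 had an estimate above 0 (49.5% of all genes did), 22 had every Triple tumor above every Sham tumor (9.41% of all genes did), and 28 had an unadjusted p under 0.05 in that direction (9.96% of all genes). Their median log2 fold change was 2.95, against 0.00 over all genes tested. By tumor, 26 of the 30 lay above the highest Sham tumor in Triple 1, 30 in Triple 2 and 24 in Triple 3, where 22.6%, 35.6% and 27.5% of all genes did. DESeq2 called 18 of them higher at an adjusted p under 0.05 (3.23% of all genes). Without Triple 2 the median was 1.32 with 9 members at an unadjusted p under 0.05, and with the library code as a term it was 1.03 with 1 such member.

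Interferon acts on a known DNA element, the ISRE, whose core is GAAA, then 2 bases of any kind, then GAAA. The core was searched on both strands of 250 bases before to 50 bases after each gene's start. The promoter sequences of 3 of these genes are shown. They were chosen for holding a match, so the presence of one in all 3 is not a result. Sequences are from RefSeq on GRCm38.p6, each covers the 250 bases before the start on the gene's own strand, and capitals mark the match. Oas3 lies at chr5:120777660-120777909 on the minus strand, Trim30a at chr7:104465194-104465443 on the minus strand and Ifit3 at chr19:34583279-34583528 on the plus strand.
Oas3: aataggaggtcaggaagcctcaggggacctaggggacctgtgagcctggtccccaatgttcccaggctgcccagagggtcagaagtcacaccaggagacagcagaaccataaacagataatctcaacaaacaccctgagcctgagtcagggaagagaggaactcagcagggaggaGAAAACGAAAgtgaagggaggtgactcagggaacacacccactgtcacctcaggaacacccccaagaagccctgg
Trim30a: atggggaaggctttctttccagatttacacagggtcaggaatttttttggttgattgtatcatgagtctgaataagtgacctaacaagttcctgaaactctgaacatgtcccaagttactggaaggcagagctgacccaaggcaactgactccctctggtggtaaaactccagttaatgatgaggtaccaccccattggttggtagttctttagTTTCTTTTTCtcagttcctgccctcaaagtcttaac
Ifit3: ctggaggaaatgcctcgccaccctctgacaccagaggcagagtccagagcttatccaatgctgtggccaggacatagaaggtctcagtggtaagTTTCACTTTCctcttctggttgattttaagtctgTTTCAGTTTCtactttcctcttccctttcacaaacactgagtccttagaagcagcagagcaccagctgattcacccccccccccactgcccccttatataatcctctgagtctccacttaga
The core was found in 12 of the 22 listed type I interferon genes with a promoter entry (54.5%) and in 3.99% of all 27025 genes with an entry. A match is a description of letters and not a measured site. Oas3, which makes the activator of RNase L, measured 1.43, 0.164 and 0.908 CPM in Sham and 5.20, 102 and 11.5 CPM in Triple (log2 fold change 5.51 ± 1.28, edgeR adjusted p = 0.194). Trim30a, a ubiquitin ligase of the tripartite motif family, measured 5.25, 1.15 and 2.14 CPM in Sham and 14.7, 104 and 32.1 CPM in Triple (4.12 ± 1.01). Ifit3, which helps bind foreign RNA, measured 1.67, 0.246 and 0.843 CPM in Sham and 4.60, 70.7 and 5.83 CPM in Triple (4.83 ± 1.35). In each of these genes Triple 2 was highest by a wide margin, Triple 3 was second and Triple 1 lay closest to Sham 1. Oas2 and Cmpk2 followed the same order, with log2 fold changes of 4.81 and 3.46.

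Interferon gamma-induced genes, mainly GTPases that attack vacuoles of intracellular parasites, numbered 22 and were all tested. All 22 had an estimate above 0 (49.5% of all genes), with a median of 3.14. Groups did not overlap for 10 (9.41% of all genes), and 16 had an unadjusted p under 0.05 (9.96%). By tumor, 20 lay above the highest Sham tumor in Triple 1, 22 in Triple 2 and 11 in Triple 3. The shares of all genes were 22.6%, 35.6% and 27.5%. The median was 0.96 without Triple 2, with 1 member at an unadjusted p under 0.05, and 8 members had one without Sham 2. The promoter of the GTPase Tgtp2 is shown, at chr11:49064213-49064462 on the minus strand, with the gamma-activated site TTCNNNGAA in capitals. It too was chosen for holding a match.
Tgtp2: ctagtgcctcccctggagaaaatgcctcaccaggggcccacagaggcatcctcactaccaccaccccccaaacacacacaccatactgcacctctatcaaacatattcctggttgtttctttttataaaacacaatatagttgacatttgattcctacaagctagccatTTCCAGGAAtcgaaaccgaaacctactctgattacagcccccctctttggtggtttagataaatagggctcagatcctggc
That element was present in 8 of the 13 listed interferon gamma genes with an entry (61.5%) and in 9.55% of all genes with an entry, and the ISRE core was present in 10 of the 13 (76.9%). Tgtp2 measured 2.92, 1.39 and 6.61 CPM in Sham and 11.0, 189 and 9.71 CPM in Triple. Iigp1, another such GTPase, measured 3.28, 0.737 and 4.67 CPM in Sham and 11.1, 428 and 17.2 CPM in Triple. Triple 2 was far above the other 5 tumors for both, and Triple 1 and 3 lay above the highest Sham tumor, for Iigp1 by at least 2-fold. Tgtp2 and the Gbp genes belong to families of near-identical copies, so reads may be split between them. Ifng itself was at 0 to 0.179 CPM in Sham and at 0.133, 1.36 and 0.253 CPM in Triple, and it did not pass the low-count filter.

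Class II MHC molecules show peptides to CD4 T cells, and their genes were highest in Triple 2. Of 12 listed, 10 passed the low-count filter, which members high in some tumors pass more readily. All 10 had an estimate above 0 (49.5% of all genes) and an unadjusted p under 0.05 (9.96%). Groups did not overlap for 9 (9.41% of all genes), and the median log2 fold change was 5.50. All 10 lay above the highest Sham tumor in Triple 2 and Triple 3 and 9 did in Triple 1. The shares of all genes were 35.6%, 27.5% and 22.6% in Triple 2, 3 and 1. H2-Aa, the class II alpha chain, measured 3.10, 0.901 and 1.30 CPM in Sham and 31.8, 381 and 14.9 CPM in Triple (log2 fold change 6.30 ± 1.40, edgeR adjusted p = 0.194, DESeq2 adjusted p = 5.9e-05). H2-DMb2, which loads peptide on class II, measured 0.0597, 0.164 and 0.195 CPM in Sham and 4.33, 17.5 and 2.03 CPM in Triple (5.77 ± 1.17). Cd74, the invariant chain, measured 18.7, 4.42 and 5.51 CPM in Sham and 115, 1441 and 67.7 CPM in Triple, and Ciita, the master regulator of the class, measured 2.21, 1.15 and 1.49 CPM in Sham and 16.6, 109 and 5.40 CPM in Triple. In these 4 genes every Triple tumor was above every Sham tumor, in the order Triple 2, Triple 1, Triple 3. Without Triple 2 the list median was 2.98 with 7 members at an unadjusted p under 0.05, and with the library code as a term it was 3.46 with 6.

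MHC class I genes, which present antigen to CD8 T cells, differed in 1 tumor. All 18 had an estimate above 0 (49.5% of all genes), with a median of 0.98. Of them 1 had no overlap (9.41% of all genes) and 3 had an unadjusted p under 0.05 (9.96%). B2m, the shared light chain, measured 873, 652 and 622 CPM in Sham and 673, 2306 and 657 CPM in Triple. H2-K1 measured 71.3, 54.9 and 62.2 CPM in Sham and 53.7, 246 and 53.5 CPM in Triple. Triple 1 and 3 lay within or under the Sham range for these genes, and all 18 genes lay above it in Triple 2. The median was -0.11 without Triple 2 and 0.14 with the library code as a term, with 0 members at an unadjusted p under 0.05 in either. Psmb10, an immunoproteasome subunit, was the gene without overlap, at 4.95 to 5.49 CPM in Sham and 9.96 to 52.7 CPM in Triple.

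Most T cell genes were near 0 in the Sham tumors and high in Triple 1 and Triple 2. Exceptions in level included Tcf7, a transcription factor also made outside T cells, at 143 to 258 CPM in Sham and 106 to 228 CPM in Triple. Thy1, which is also on the fibroblast list, measured 47.8, 9.74 and 16 CPM in Sham and 34.4, 94 and 84.4 CPM in Triple, with overlapping groups. The 24 listed receptor and coreceptor genes were all tested. Some passed the low-count filter through the tumors where they were high, so their count supports nothing by itself. Of the 24, 23 had an estimate above 0 (49.5% of all genes). An unadjusted p under 0.05 was found for 21 (9.96% of all genes), and 9 had no overlap (9.41%). The median was 4.82, or 4.69 where genes absent from Sham take the lower bound given by 3 counts in the Sham group. In Triple 1 and in Triple 2, 22 of the 24 lay above the highest Sham tumor, against 10 in Triple 3. The shares of all genes were 22.6%, 35.6% and 27.5% in Triple 1, 2 and 3. Cd8a, the CD8 coreceptor, measured 0.0597, 0.0819 and 0.0648 CPM in Sham and 6.74, 13.3 and 0.253 CPM in Triple (log2 fold change 6.47 ± 1.67, edgeR adjusted p = 0.194). Cd3e, a chain of the receptor complex, measured 0.0597, 0 and 0 CPM in Sham and 9.20, 22.3 and 0.253 CPM in Triple. In a bulk tumor, fewer cells of a type and less RNA per cell cannot be told apart.

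Cytotoxic and NK cell genes were carried by Triple 2. Only 10 of the 23 listed passed the low-count filter, and those passed through the tumors where they were high, so their count supports nothing by itself. Summed over all 23, the list was at 9.31, 2.13 and 2.40 CPM in Sham, with Gzmd at 2.45 and Gzme at 3.10 CPM in Sham 1, and at 14.8, 195 and 7.18 CPM in Triple. Gzmb, a protease that cytotoxic cells inject into targets, had 0 counts in Sham and 0.267, 21.2 and 0.0844 CPM in Triple. Prf1, which forms the pore for it, measured 0.239, 0.164 and 0.0648 CPM in Sham and 1.53, 21.0 and 0.675 CPM in Triple. Klrk1, an activating receptor of NK and CD8 T cells, measured 0.179, 0.0819 and 0.0648 CPM in Sham and 1.87, 34.0 and 0.844 CPM in Triple. Triple 1 and 3 were above Sham for Prf1 and Klrk1, but by a small amount beside Triple 2.

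Chemokines that draw T cells, with their receptors, followed Triple 2 as well. Of 16 listed, 12 passed the low-count filter, some of them through the tumors where they were high, so their count supports nothing by itself. All 12 had an estimate above 0 (49.5% of all genes), 6 had no overlap (9.41%) and 11 had an unadjusted p under 0.05 (9.96%). The median was 3.97, or 3.71 with absent genes at their bound. Over all 16, the list summed to 55.2, 16.1 and 31.2 CPM in Sham and to 79.6, 865 and 78.5 CPM in Triple. Cxcl9, an interferon gamma-induced ligand, measured 0.835, 0.164 and 3.44 CPM in Sham and 4.47, 323 and 6.33 CPM in Triple. Its receptor Cxcr3 measured 0.119, 0 and 0 CPM in Sham and 2.20, 9.81 and 1.86 CPM in Triple (log2 fold change 6.45 ± 1.48, edgeR adjusted p = 0.194). Ccr7, which guides lymphocytes and dendritic cells to lymph nodes, measured 0.298, 0.491 and 0.648 CPM in Sham and 8.07, 12.3 and 0.844 CPM in Triple. Receptor and ligand were highest in the same tumor, while Ccr7 was close to Sham in Triple 3. Without Triple 2 the median was 1.74 with 4 members at an unadjusted p under 0.05.

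The target of the antibody was itself uneven. Cd274 measured 7.52, 2.62 and 3.96 CPM in Sham and 5.74, 123 and 9.79 CPM in Triple, so the groups overlapped (log2 fold change 3.28 ± 1.27, edgeR adjusted p = 0.264). Pdcd1 measured 0.0597, 0.0819 and 0 CPM in Sham and 0.734, 7.22 and 0.0844 CPM in Triple (5.63 ± 1.38, edgeR adjusted p = 0.194). Of 21 tested checkpoint and regulatory genes, 18 had an estimate above 0 (49.5% of all genes), with a median of 2.03. An unadjusted p under 0.05 was found for 14 (9.96% of all genes), and 5 had no overlap (9.41%). Without Triple 2 the median was 0.73 with 4 members at an unadjusted p under 0.05, and with the library code as a term it was 0.85 with 3. Foxp3, which defines regulatory T cells, measured 0.716, 2.37 and 1.69 CPM in Sham and 4.00, 15.7 and 1.01 CPM in Triple. Ctla4 was at 0.239 to 0.409 CPM in Sham and at 1.33, 12.1 and 0.169 CPM in Triple. For Foxp3 and Ctla4 Triple 1 and 2 were above the Sham range and Triple 3 was within or under it. Tumors of the other treatment groups reached 449 CPM for Cxcl9, 616 for Iigp1, 56.2 for Gzmb and 185 for Cd274, above Triple 2. Levels that high were thus not confined to the Triple group for these genes. For H2-Aa, Cd74, Cd3e and Cd8a they reached 159, 572, 6.05 and 2.13 CPM, below Triple 2.

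**Figure D3:**
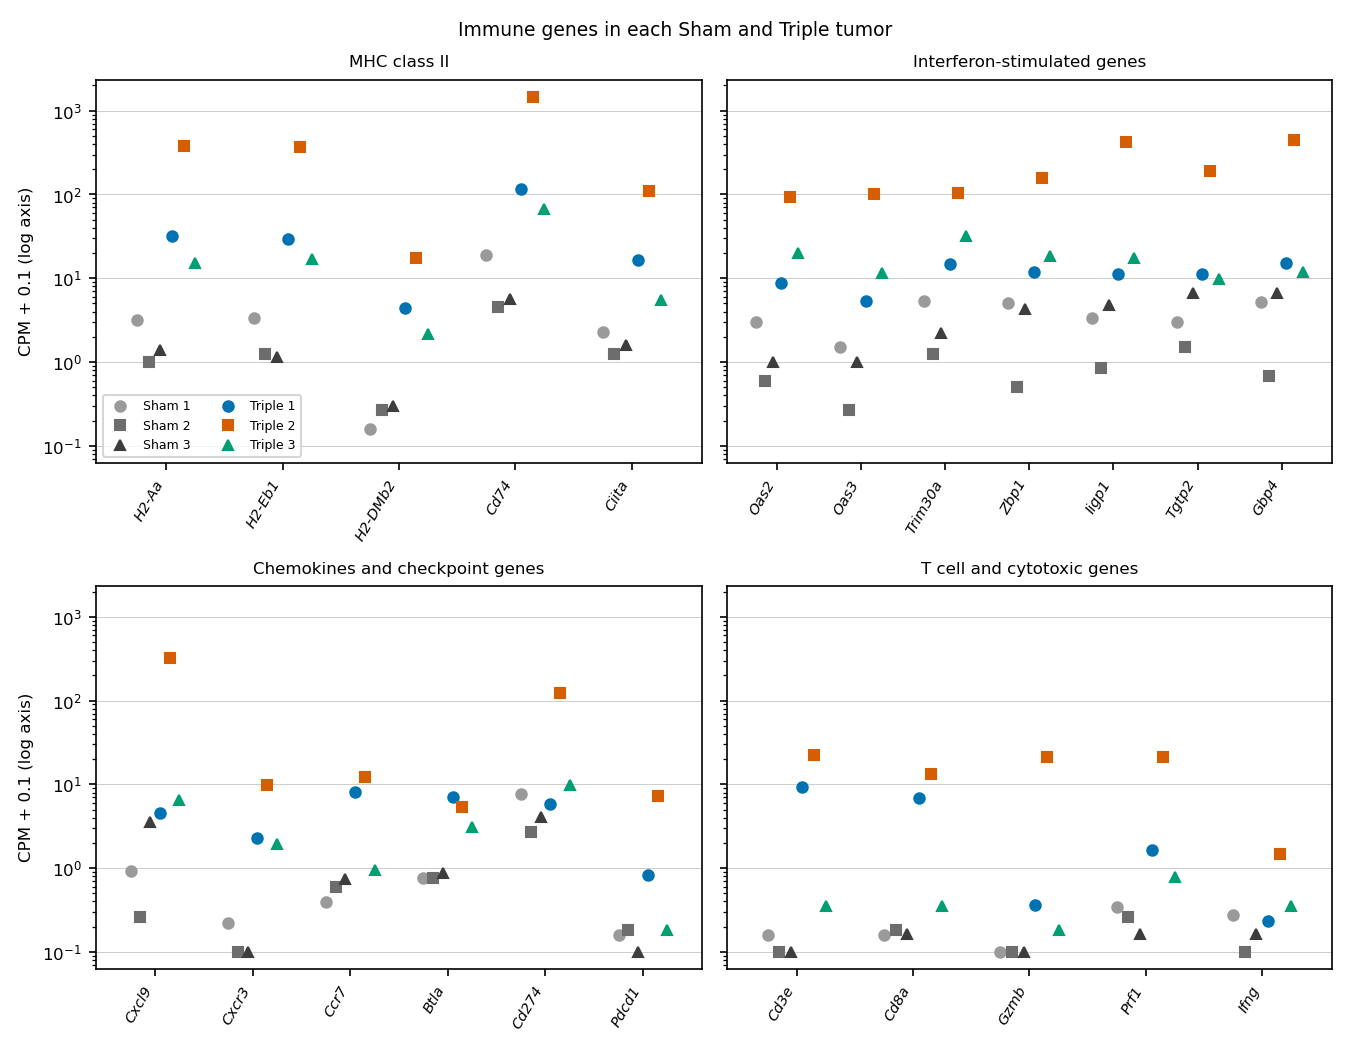
CPM + 0.1 on a log axis for immune genes in the 3 Sham tumors (gray) and the 3 Triple tumors (colored), 1 symbol per tumor. Triple 2 is highest for every gene plotted but Btla, while Triple 3 sits near Sham for Cd3e, Cd8a and Gzmb at 0.253, 0.253 and 0.0844 CPM.

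B cell and lymph node genes were high in Triple 1. Of the 20 listed, 7 passed the low-count filter. Ms4a1, a B cell surface protein, was at 6.67 CPM in Triple 1, at 0.409 CPM in Triple 2, and at 0 to 0.119 CPM in the other 4 tumors. Glycam1, a ligand of high endothelial venules in lymph nodes, was at 28.0 CPM in Triple 1, at 0.0681 CPM in Triple 2 and at 0 in the other 4. Ccl21a, a chemokine of lymph node stroma, was at 11.6 CPM in Triple 1 and at 0 in the other 5. The list summed to 129 to 168 CPM in Sham and to 367, 169 and 117 CPM in Triple. These lymph node markers moved with the T cell genes of Triple 1 and not with those of Triple 2, and their part in the T cell and Ccr7 values of Triple 1 was not tested.

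The immunoglobulin heavy chain Ighm was an exception to that pattern. It measured 1.31, 0.409 and 0.454 CPM in Sham and 64.8, 50.3 and 7.43 CPM in Triple, so it was high in both Triple 1 and Triple 2 and above Sham in Triple 3 (log2 fold change 5.77 ± 1.16, edgeR adjusted p = 0.194, DESeq2 adjusted p = 3.16e-06). Ighd, the chain of naive B cells, chosen after its values were seen, measured 0.477, 0.0819 and 0.0648 CPM in Sham and 21.7, 1.02 and 0.169 CPM in Triple. Igkc, the kappa light chain, measured 0.298, 0 and 0.195 CPM in Sham and 25.5, 3.34 and 0.0844 CPM in Triple. Ighd and Igkc were far higher in Triple 1 than in Triple 2, and Igkc was within the Sham range in Triple 3.

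Adipocyte genes, which mark the fat pad around a mammary tumor, were for the most part higher in all 3 Triple tumors. Of 18 listed, 17 passed the low-count filter, some of them through the tumors where they were high, so their count supports nothing by itself. Of these, 16 had an estimate above 0 (49.5% of all genes), with a median log2 fold change of 3.61. Groups did not overlap for 12 (9.41% of all genes), and 11 had an unadjusted p under 0.05 (9.96%). Adipoq, the hormone adiponectin, had 0 counts in Sham and 14.7, 9.94 and 1.27 CPM in Triple. With the Triple tumors pooled it was at least 136-fold higher, by the bound that 3 counts over the Sham tumors allow. Cfd, the serine protease adipsin, measured 0.119, 0 and 0.0648 CPM in Sham and 24.3, 40.4 and 5.91 CPM in Triple. Car3, a carbonic anhydrase of fat and muscle, measured 0, 0.246 and 0.0648 CPM in Sham and 46.9, 34.9 and 4.47 CPM in Triple. Summed over the list, Triple 3 was within the Sham range at 473 CPM against 403 to 586, with Triple 1 and 2 at 1319 and 1652 CPM. Skeletal muscle genes summed to 2.78 to 4.21 CPM in Sham and 3.93 to 5.23 CPM in Triple. The part of adjoining fat in the other differences was not tested.

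Luminal epithelial genes split by gene. Prlr, the prolactin receptor, measured 2.39, 1.06 and 0.973 CPM in Sham and 40.7, 51.8 and 1.18 CPM in Triple. Pgr, the progesterone receptor, measured 0.358, 0.327 and 0.324 CPM in Sham and 8.47, 8.44 and 3.80 CPM in Triple (log2 fold change 4.32 ± 1.30, edgeR adjusted p = 0.204). Foxa1, a factor of hormone-responsive luminal cells, had 0 counts in Sham and 5.60, 4.36 and 0.169 CPM in Triple. With the Triple tumors pooled it was at least 53.5-fold higher, by the bound that 3 counts over the Sham tumors allow. Triple 1 and 2 carried that pool. Sham and Triple 3 were low for Prlr and Foxa1, and Triple 3 was above Sham for Pgr. Over the 21 tested luminal genes the median was 0.37, or -0.13 without Triple 2 and -0.09 without Sham 2. Triple lay above Sham without overlap for 4 (9.41% of all genes), while Epcam, Cdh1 and Krt18 had overlapping groups.

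**Figure D4:**
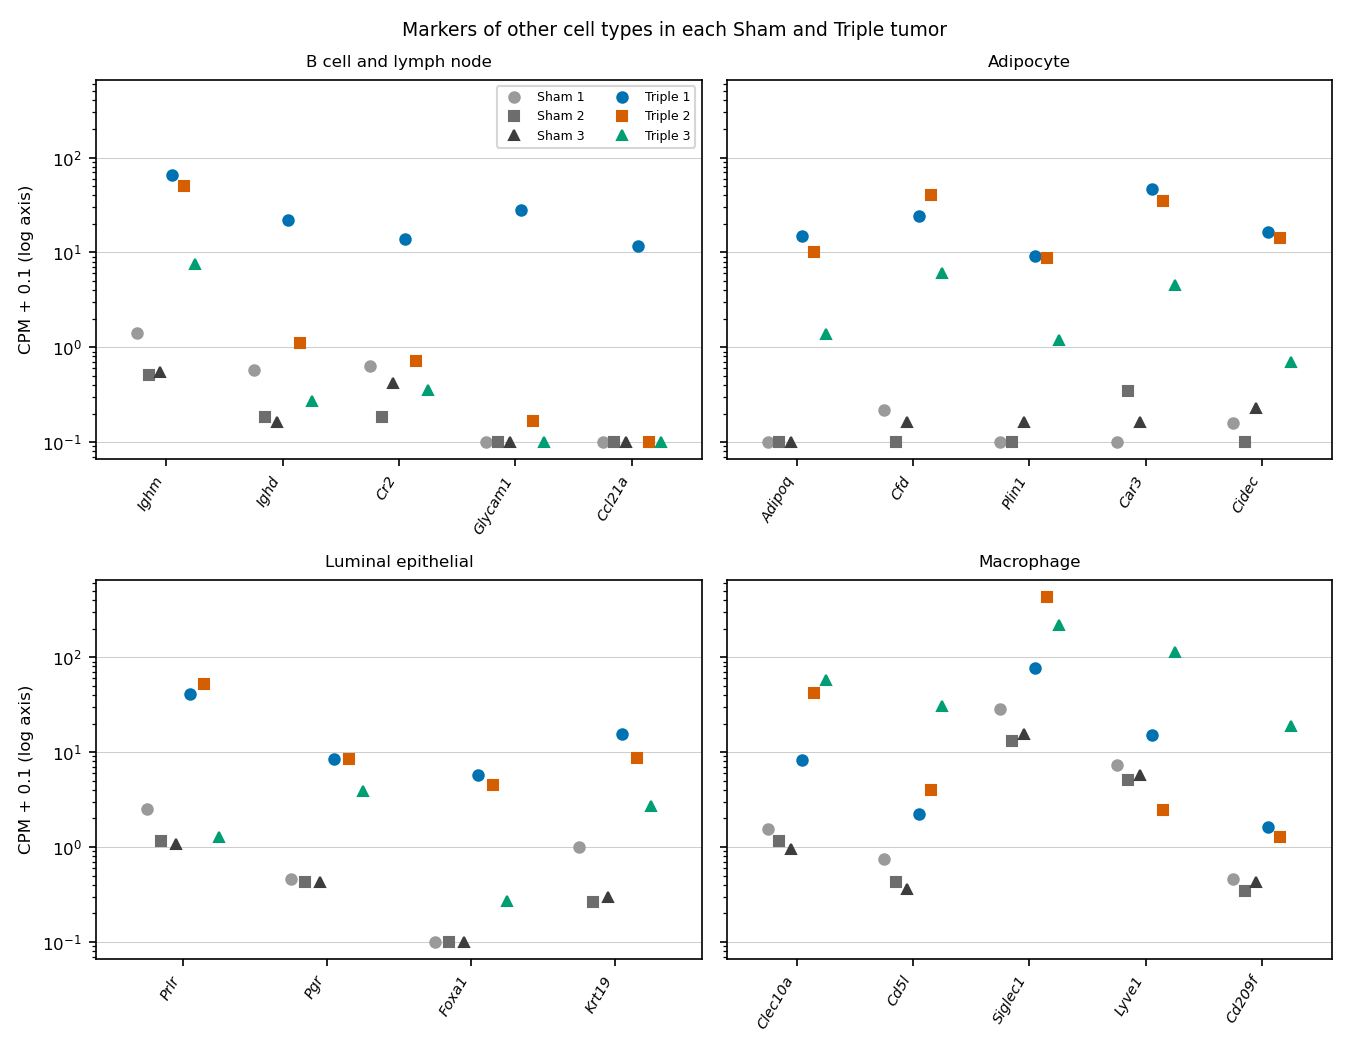
CPM + 0.1 on a log axis for B cell and lymph node, adipocyte, luminal epithelial and macrophage genes, 1 symbol per tumor, Sham in gray and Triple in color. Glycam1 and Ccl21a stand out in Triple 1 alone at 28.0 and 11.6 CPM, the adipocyte genes are above Sham in all 3 Triple tumors, and Lyve1 reaches 115 CPM in Triple 3.

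Macrophage genes were high in Triple 2 and Triple 3. All 23 tested had an estimate above 0 (49.5% of all genes), with a median of 2.37. An unadjusted p under 0.05 was found for 17 (9.96% of all genes), and 6 had no overlap (9.41%). In Triple 2 and in Triple 3, 21 of the 23 lay above the highest Sham tumor (35.6% and 27.5% of all genes did). In Triple 1, 7 did, near the share of all genes (30.4% against 22.6%). Mrc1, the mannose receptor, measured 78.4, 23.7 and 35.1 CPM in Sham and 111, 394 and 453 CPM in Triple (log2 fold change 2.80 ± 0.90, edgeR adjusted p = 0.220). Fcgr1, a high-affinity receptor for immunoglobulin G, measured 2.98, 1.96 and 2.07 CPM in Sham and 5.14, 55.9 and 13.2 CPM in Triple. Both genes were higher in all Triple tumors, with Triple 1 the closest to Sham 1. The list median was 1.18 with 6 members at an unadjusted p under 0.05 without Triple 2, and 8 and 10 members had one without Sham 2 and Sham 3. With the library code as a term, the list median was 0.50 and 0 members had an unadjusted p under 0.05. Triple 1 is the 1 Triple tumor with the code of the Sham tumors, so that fit rests on it.

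Some macrophage genes were highest in Triple 3, and those named here were chosen after their values were seen. Cd5l, an apoptosis inhibitor secreted by tissue macrophages, measured 0.656, 0.327 and 0.259 CPM in Sham and 2.13, 3.88 and 30.8 CPM in Triple. Lyve1, a hyaluronan receptor of lymphatic vessels and perivascular macrophages, measured 7.28, 4.99 and 5.58 CPM in Sham and 14.9, 2.38 and 115 CPM in Triple. Clec10a, a galactose lectin of macrophages, measured 1.43, 1.06 and 0.843 CPM in Sham and 8.14, 41.5 and 58.2 CPM in Triple. Lyve1 was under the Sham range in Triple 2, which made Triple 2 the lowest and Triple 3 the highest of the 6 tumors for it. Cd209f and Retnla, macrophage lectin and secreted protein genes, were also highest in Triple 3, at 18.7 and 17.1 CPM.

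Monocyte and neutrophil genes followed the same tumors. Of 26 listed, 22 passed the low-count filter, which members high in some tumors pass more readily. Of these, 21 had an estimate above 0 (49.5% of all genes) and 13 had no overlap (9.41%). An unadjusted p under 0.05 was found for 14 (9.96% of all genes), and the list median was 2.99. The 3 genes named here are genes of monocytes and their chemokines, so no level of a neutrophil gene is given. Ccr2, the receptor that brings monocytes out of the marrow, measured 5.31, 1.31 and 1.23 CPM in Sham and 18.2, 121 and 38.8 CPM in Triple (log2 fold change 4.48 ± 1.04, edgeR adjusted p = 0.194). Ccl8, a monocyte chemokine, measured 6.44, 1.31 and 4.21 CPM in Sham and 20.5, 412 and 95.4 CPM in Triple. Ms4a4c measured 0.597, 0.164 and 0 CPM in Sham and 5.34, 41.3 and 5.49 CPM in Triple. All 3 genes lay above Sham in each Triple tumor. Without Triple 2 the list median was 1.85 with 9 members at an unadjusted p under 0.05, and with the library code as a term it was 0.82 with 4.

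Dendritic cell genes were above the highest Sham tumor for 14 of 18 in Triple 1, 14 in Triple 2 and 12 in Triple 3. The shares of all genes were 22.6%, 35.6% and 27.5%. Of 18 tested, 16 had an estimate above 0 (49.5% of all genes), with a median of 2.85. Groups did not overlap for 10 (9.41% of all genes), and 13 had an unadjusted p under 0.05 (9.96%). Flt3, the growth factor receptor of dendritic cell precursors, measured 0.179, 0 and 0.195 CPM in Sham and 2.47, 4.63 and 1.35 CPM in Triple (log2 fold change 4.34 ± 0.91, edgeR adjusted p = 0.194). Xcr1, which marks cross-presenting dendritic cells, measured 0.239, 0.164 and 0.519 CPM in Sham and 3.07, 9.47 and 1.18 CPM in Triple. Wdfy4, which cross-presentation needs, measured 10.7, 3.77 and 6.61 CPM in Sham and 40.0, 120 and 34.5 CPM in Triple. For these genes the groups were apart, with Triple 3 nearest to Sham and Triple 2 highest. The list median was 1.42 with 7 members at an unadjusted p under 0.05 without Triple 2, and 1.62 with 7 with the library code as a term.

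Complement genes were higher throughout the list. All 17 tested had an estimate above 0 (49.5% of all genes), with a median of 2.48. Groups did not overlap for 7 (9.41% of all genes), and 13 had an unadjusted p under 0.05 (9.96%). C3, the central component, measured 35.0, 3.36 and 4.47 CPM in Sham and 172, 1418 and 244 CPM in Triple (log2 fold change 5.41 ± 1.52, edgeR adjusted p = 0.195). C4b measured 28.8, 4.50 and 8.17 CPM in Sham and 69.7, 444 and 170 CPM in Triple. Sham 1 was the highest Sham tumor for both genes, and each Triple tumor was above it. With the library code as a term the median was 0.85 with 4 members at an unadjusted p under 0.05, without Triple 2 it was 1.71 with 6, and without Sham 2 it was 2.15 with 7.

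Hypoxia and glycolysis genes, many of them targets of the oxygen-sensing factor HIF-1, had estimates under 0 throughout. All 24 tested had an estimate under 0 (8086 of all 16017 genes), with a median log2 fold change of -0.71. Of them 12 had an unadjusted p under 0.05 (4.93% of all genes did in that direction) and 5 had no overlap (7.15%). In Triple 1, 21 of the 24 lay below the lowest Sham tumor and in Triple 2, 23 did, against 5 in Triple 3, where 20.7%, 33.7% and 24.0% of all genes did in Triple 1, 2 and 3. The count in Triple 3 was thus near that of all genes. Egln3, an oxygen-sensing hydroxylase, measured 198, 163 and 180 CPM in Sham and 45.7, 16.1 and 119 CPM in Triple (-1.58 ± 0.52, edgeR adjusted p = 0.224). Vegfa, the endothelial growth factor, measured 588, 392 and 489 CPM in Sham and 101, 40.9 and 460 CPM in Triple. Ndrg1, a stress-response gene, measured 469, 243 and 335 CPM in Sham and 43.1, 81.7 and 392 CPM in Triple. Vegfa and Ndrg1 in Triple 3 were within the Sham range, so the groups overlapped.

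Other members of the list acted in glucose use. Pdk1, which keeps pyruvate out of mitochondria, measured 118, 109 and 123 CPM in Sham and 71.4, 24.3 and 87.0 CPM in Triple. Pgk1, a glycolytic enzyme, measured 128, 156 and 131 CPM in Sham and 78.9, 39.0 and 89.1 CPM in Triple. Slc2a1, the glucose transporter GLUT1, measured 269, 190 and 145 CPM in Sham and 81.5, 56.7 and 169 CPM in Triple. Pdk1 and Pgk1 were lower in all 3 Triple tumors and Slc2a1 in Triple 1 and 2. Without Triple 3 the list median was -1.28 with 23 of 24 members at an unadjusted p under 0.05. Over all genes, 2459 of 16430 had such a p in that fit, in either direction. Ddit4, a hypoxia-induced inhibitor of mTOR, then passed at an edgeR adjusted p of 0.0465 with a log2 fold change of -1.42. Ccr7, Cd5 and Spib, all immune cell genes, were the other genes to pass without Triple 3, at adjusted p values of 0.0448, 0.0465 and 0.0465 and all higher. Without Triple 2 the list median was -0.50 with 3 members at an unadjusted p under 0.05, without Triple 1 there were 6, and without any single Sham tumor there were 7.

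**Figure D5:**
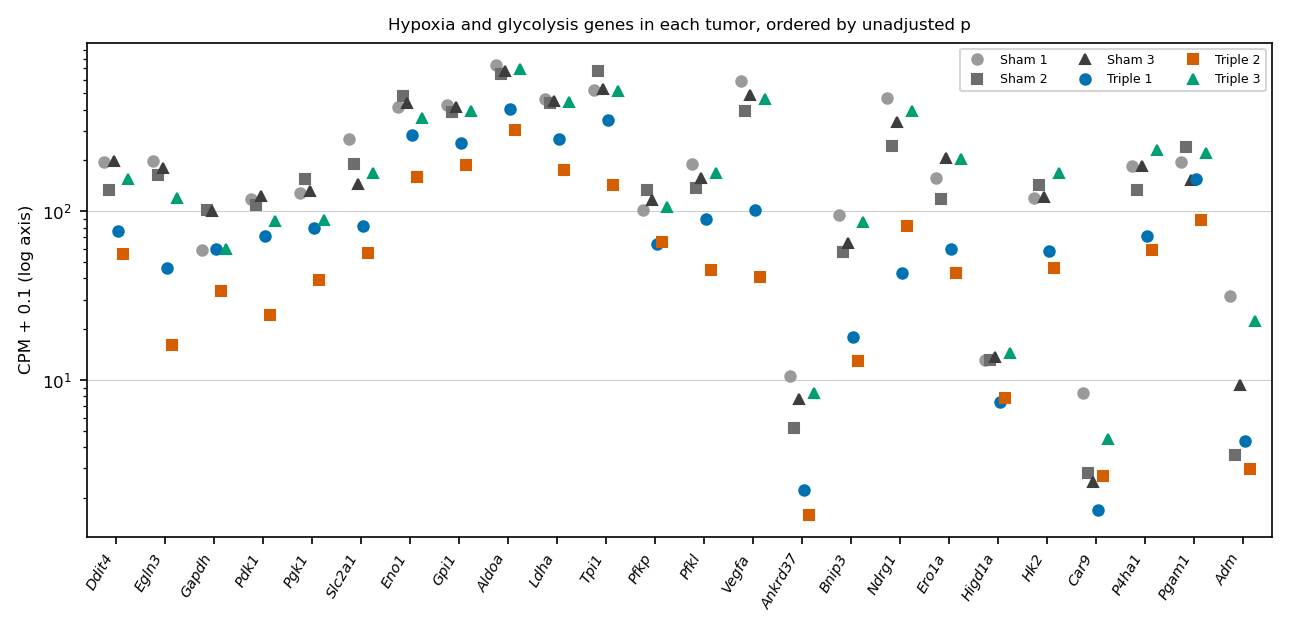
CPM + 0.1 on a log axis for the 24 hypoxia and glycolysis genes, ordered by unadjusted edgeR p, 1 symbol per tumor with Sham in gray and Triple in color. Triple 1 and Triple 2 lie under the Sham tumors for most genes (21 and 23 of 24), while Triple 3 lies among them for all but 5 below and 3 above.

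Nuclear genes of the respiratory chain, which uses the oxygen that those genes respond to, were slightly lower. Of 26 tested, 24 had an estimate under 0 (8086 of all 16017 genes), with a median of -0.30. At an unadjusted p under 0.05, 6 were lower and 1 was higher (4.93% and 9.96% of all genes), and 4 lay below Sham without overlap (7.15%). Cycs, cytochrome c, was the member that was higher, at 19.0, 28.5 and 24.2 CPM in Sham and 37.6, 27.2 and 36.0 CPM in Triple. Without Sham 1, 16 members were lower at an unadjusted p under 0.05, without Triple 1 there were 11, and without Triple 2 there were 0. Over all genes, 3446 of 16414, 3336 of 16378 and 1135 of 16243 had such a p in these fits, in either direction.

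TGF beta target genes, the readout nearest to the inhibitor, showed no common direction. Of 23 tested, 12 had an estimate above 0 (49.5% of all genes) and 11 under 0, with a median of 0.00. At an unadjusted p under 0.05, 1 gene was higher and 2 were lower (9.96% and 4.93% of all genes). Without overlap, 1 lay above and 2 lay below (9.41% and 7.15% of all genes). Smad7, the feedback inhibitor, measured 35.0, 16.9 and 24.1 CPM in Sham and 22.3, 30.4 and 23.6 CPM in Triple (log2 fold change 0.01 ± 0.24, edgeR adjusted p = 0.995). The groups overlapped for Smad7, and its SE leaves room for differences of either sign. Tgfbi, an adhesion protein of the matrix that TGF beta induces, measured 17.2, 5.57 and 6.03 CPM in Sham and 27.8, 88.5 and 43.0 CPM in Triple (2.46 ± 0.70, edgeR adjusted p = 0.196). Snai2, a repressor of epithelial genes, measured 211, 255 and 206 CPM in Sham and 141, 89.8 and 167 CPM in Triple (-0.76 ± 0.24). The list median was 0.65 without Sham 1 and -0.63 with the library code as a term, and its sign changed between these fits.

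Ligands, receptors and activators of the pathway were also mixed, with a median of 0.11 over 20 tested genes, -0.11 without Triple 2, -0.07 without Sham 2, -0.04 without Sham 3 and -0.18 with the library code as a term. Tgfb1, the main ligand, measured 66.8, 27.0 and 30.6 CPM in Sham and 48.0, 117 and 81.8 CPM in Triple (log2 fold change 0.99 ± 0.46, edgeR adjusted p = 0.342). Tgfbr1, the receptor kinase, measured 91.6, 61.0 and 45.7 CPM in Sham and 58.2, 167 and 61.7 CPM in Triple (0.53 ± 0.36, edgeR adjusted p = 0.501), and its estimate was under 0 without Triple 2. Nrros, which holds latent TGF beta on myeloid cells, measured 22.7, 6.06 and 9.66 CPM in Sham and 24.1, 109 and 59.1 CPM in Triple. Tgfbr3, the coreceptor betaglycan, measured 273, 446 and 270 CPM in Sham and 218, 216 and 189 CPM in Triple. Nrros lay above and Tgfbr3 below all Sham tumors, and the ligand and kinase overlapped.

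Extracellular matrix and fibroblast genes turned on 1 Sham tumor. Of 24 tested, 21 had an estimate above 0 (49.5% of all genes), with a median of 0.70. Of them 1 had an unadjusted p under 0.05 (9.96% of all genes) and 0 were without overlap (9.41%). The list summed to 20406, 3932 and 5458 CPM in Sham and to 6071, 16038 and 17162 CPM in Triple, so Sham 1 was the highest of all 6 tumors. Without Sham 1 the median was 2.36 and 20 of 24 had an unadjusted p under 0.05, where 3446 of all 16414 genes did, in either direction. Dcn, decorin, measured 65.0, 1.31 and 4.02 CPM in Sham and 54.0, 282 and 137 CPM in Triple. With the library code as a term, which sets Triple 1 against the Sham tumors, the median was -0.70. Endothelial genes followed the same tumors, with a median of 0.27 over 23 tested, 1.23 without Sham 1, -0.06 without Sham 2 and -0.36 with the library code as a term. Of 19 tested genes of the epithelial-mesenchymal transition, 16 had an estimate above 0 (49.5% of all genes), with a median of 0.66. Their median was 1.83 without Sham 1 and -0.50 with the library code as a term.

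Targets of p53 were examined although the tumors are labelled Trp53 null. Of 24 tested, 17 had an estimate above 0 (49.5% of all genes) and 4 had an unadjusted p under 0.05 (9.96%), with a median of 0.26. Cdkn1a, which encodes p21, an inhibitor of the cell cycle, measured 39.1, 12.1 and 17.4 CPM in Sham and 21.8, 125 and 40.4 CPM in Triple (log2 fold change 1.44 ± 0.67, edgeR adjusted p = 0.337). Eda2r, another listed target, measured 1.91, 0.327 and 0.843 CPM in Sham and 2.60, 15.7 and 2.62 CPM in Triple. In Triple 2, 16 of the 24 genes lay above the highest Sham tumor, against 3 in Triple 1 and 7 in Triple 3, where 35.6%, 22.6% and 27.5% of all genes did. The count in Triple 1 was under that share and the count in Triple 3 was near it. The median was 0.06 with 0 members at an unadjusted p under 0.05 without Triple 2, and 8 members had one without Triple 1 and 8 without Triple 3. Over all genes, 1135 of 16243, 3336 of 16378 and 2459 of 16430 had one in these fits, in either direction.

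Genes of DNA replication and mitosis were slightly lower, with 27 of 30 estimates under 0 (8086 of all 16017 genes) and a median of -0.24. By edgeR, 0 had an unadjusted p under 0.05 (9.96% of all genes higher and 4.93% lower). Top2a, a topoisomerase of dividing cells, measured 494, 700 and 637 CPM in Sham and 574, 335 and 559 CPM in Triple. In Triple 2, 26 of the 30 genes lay below the lowest Sham tumor, against 0 in Triple 1 and 2 in Triple 3, where 33.7%, 20.7% and 24.0% of all genes did. By edgeR 8 members had an unadjusted p under 0.05 without Triple 1 (median -0.46) and 6 without Sham 1 (median -0.40), all lower. Over all genes, 3336 of 16378 and 3446 of 16414 had such a p in these fits, in either direction. The median was -0.07 without Triple 2, -0.09 without Sham 2 and 0.09 with the library code as a term. Double-strand break repair genes had 21 of 26 estimates under 0 (8086 of all 16017 genes) and a median of -0.19. Their median was 0.01 with the library code as a term and -0.04 without Sham 2. Lig4, the ligase of end joining, was the gene with an unadjusted p under 0.05, at 7.85 to 9.58 CPM in Sham and 11.0 to 11.4 CPM in Triple (log2 fold change 0.38 ± 0.17, edgeR adjusted p = 0.327).

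Among basal and myoepithelial genes, 16 of 22 had an estimate under 0 (8086 of all 16017 genes), with a median of -0.44. At an unadjusted p under 0.05, 2 were higher and 4 lower (9.96% and 4.93% of all genes). Without Sham 1, 10 of 22 had an estimate above 0 and the median was -0.08, and with the library code as a term 0 members had an unadjusted p under 0.05. Krt5 measured 603, 721 and 658 CPM in Sham and 438, 351 and 371 CPM in Triple (log2 fold change -0.77 ± 0.26, edgeR adjusted p = 0.225). Col17a1, a hemidesmosome collagen of basal cells, measured 536, 477 and 309 CPM in Sham and 304, 225 and 249 CPM in Triple (-0.77 ± 0.21, edgeR adjusted p = 0.194). Sox10, a factor of mammary progenitor and neural crest cells, measured 354, 342 and 348 CPM in Sham and 325, 186 and 232 CPM in Triple. These 3 genes were lower in every Triple tumor than in every Sham tumor. Myh11, the myosin of smooth muscle, went the other way at 3.19 to 9.31 CPM in Sham and 14.1 to 43.6 CPM in Triple. Of 20 squamous differentiation genes, 12 were tested and 10 had an estimate under 0 (8086 of all 16017 genes), with a median of -0.63. Of the 12, 0 had an unadjusted p under 0.05, and the median was 0.33 without Sham 1.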

How the data were processed

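The authors deposited 1 table of fragment counts per Entrez gene for all libraries, not normalized, and the column names per the file headers mention Subread. The genome build was GRCm38, per the submitters' processing notes. The aligner settings, strand setting and annotation release are not given in the sources used here, so reads of overlapping or antisense genes cannot be told apart. RNA was depleted of ribosomal RNA before library preparation, per the labels' protocols.

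Counts of 15 tumors in 5 groups of 3 were fitted with edgeR 4.0.16 (R 4.3.3): the default low-count filter, which kept 16017 of 27179 genes, TMM scaling, 1 mean per group, and a two-sided quasi-likelihood test of Triple minus Sham with Benjamini-Hochberg adjustment and a threshold of 0.05. The 1 library that is not a tumor of these groups was left out. The SE of a fold change is its size divided by the root of the F statistic. DESeq2 1.42.0, limma-voom (limma 3.58.1), other scalings and filters, and fits without single tumors were alternatives. An adjusted p that DESeq2 withheld was left out. The procedure was tested on simulated counts. The simulated tumors were independent and all Triple tumors shared the same effect, so that test does not cover tumors as uneven as these.

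Symbols came from RefSeq for 25275 genes. Of 699 gene list entries, 697 were found. Named genes were, in each direction, the 12 with the smallest p among genes without overlap between the groups and an average log2 CPM of at least 1, the 4 members of each list with the smallest p, and 8 genes in any case. Other genes named were chosen after their values were seen. The members and lists were chosen with earlier results of these data known. Each tumor is taken as a separate animal; the labels do not say whether any share a donor transplant, so p-values measure the spread between these tumors.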

Additional observations from a re-analysis of the deposited data

How the results depend on the processing

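The count of 0 genes at an adjusted p under 0.05 held in every alternative but 2: DESeq2 called 619 genes, and edgeR called 4 without Triple 3, so that leaving out single tumors gave 0 to 4. At an unadjusted p under 0.05, 2385 genes became 590 with the library code as a term, 676 within library code A2301, 1523 with only the 6 Triple and Sham tumors and 1322 without Triple 2 and a TGF beta inhibitor and radiation tumor, and leaving out single tumors gave 1135 (without Triple 2) to 3446 (without Sham 1), with 1487 without Sham 2. With a replicate block the count was 2105 and 0 genes passed the adjusted threshold. Deviations of same-numbered tumors correlated at -0.579, -0.419 and -0.056. With 3 tumors a group these values cannot decide whether the numbers pair the tumors, and the labels do not say so. Of 3202 pairs of named gene and alternative, 3163 kept their direction. With the library code as a term and within code A2301, the log2 fold change turned for Pdgfra (-0.48 and -0.50), Fas (-0.06 and -0.07), Ccnb2 (0.03 and 0.01), Tgm1 (0.27 and 0.25), Hbb-bs (-0.22 and -0.24), Tgfbr1 (-0.18 and -0.20), Cdkn1a (-0.07 and -0.09) and Tnnc2 (0.70 and 0.68). Over the fits without single tumors, it changed sign for Kcnj8 (-1.81 to 0.47), Alas2 (-0.39 to 0.12), Hba-a1 (-0.81 to 0.32), Slc4a1 (-0.38 to 0.19), Ncam1 (-1.07 to 0.16), Acta1 (-0.75 to 0.01), Trp53 (-0.27 to 0.12), Tgfbr1 (-0.16 to 0.84), Tnnc2 (-0.69 to 0.22) and Hbb-bs (-0.50 to 0.76). Without Triple 2 and the other tumor together, it turned for Acta1 (0.01), Hba-a1 (0.21), Trp53 (0.12), Tgfbr1 (-0.16) and Tnnc2 (0.22). It turned for Slc4a1 with the replicate block (0.03), and with no scaling beyond the total, an alternative chosen after seeing the data, for Tnnc2 (0.03) and Trp53 (0.05). The cause was not tested. At these depths a gene with 0 counts in all Sham tumors has a lower bound on its fold only. That bound pools the tumors of a group and leaves out the spread between them.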

Other observations

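Mast cell protease genes were at or near 0 in Sham and present in every Triple tumor. Of 16 listed genes of mast cells, eosinophils and basophils, 8 passed the low-count filter, so their number supports nothing by itself. Mcpt4, a chymase, had 0 counts in Sham and 1.40, 2.18 and 1.52 CPM in Triple, at least 25.3-fold higher by the bound that 3 counts over the Sham tumors allow. Cpa3, the mast cell carboxypeptidase, measured 0.0597, 0.0819 and 0 CPM in Sham and 0.400, 0.953 and 1.44 CPM in Triple. Levels of these proteases were low in all 6 tumors, and Kit, the receptor of mast cells that epithelial cells also make, was highest in Sham 1 at 126 CPM.

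Of 21 tested inflammatory cytokine and NF-kB genes, 19 had an estimate above 0 (49.5% of all genes) and 11 an unadjusted p under 0.05 (9.96%). Their median log2 fold change was 1.39. It was 0.35 without Triple 2, with 1 member higher at an unadjusted p under 0.05, and 0.17 with the library code as a term. Il1b, a fever-inducing cytokine, measured 1.73, 0.819 and 1.36 CPM in Sham and 2.00, 32.0 and 2.20 CPM in Triple. Of 17 immediate early genes, 12 had an estimate above 0 (49.5% of all genes), with a median of 0.60, or 0.18 without Triple 2 and 1.15 without Sham 1. Fosb measured 4.00, 0.737 and 0.973 CPM in Sham and 5.60, 60.9 and 5.15 CPM in Triple.

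Gene levels of whole chromosomes differed between single tumors. As medians over expressed genes of a chromosome, Sham 3 was at -0.46 on chromosome 19 over 430 genes, Triple 3 at -0.38 on chromosome X over 369 genes and Sham 2 at 0.32 on chromosome 4 over 771 genes, each as log2(CPM + 0.5) minus the median of the gene over the 15 tumors.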
